A study of Mus musculus with 4 samples.

Results

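The genes described here handle iron: they store it, carry it in extracellular fluid, move it across membranes, release it from heme and regulate these steps. The 10 genes were taken by symbol from the feature list of 55403 genes, and each was present under a single identifier. They are Fth1, Ftl1, Trf, Tfrc, Slc11a2, Slc39a14, Slc40a1, Cp, Hmox1 and Ireb2. Single-nucleus RNA-seq of mouse hippocampus was available for 4 libraries in 3 groups. WT had 1 library. PS19, a line that carries human MAPT with the P301S change under the Prnp promoter and is used as a model of tau deposition, had 2 libraries, called PS19 1 and PS19 2. TG_PS19 had 1 library, from PS19 mice that also carry a SORLA transgene driven by a CMV/β-actin promoter at Rosa26. Both transgenic groups therefore carry the tau transgene, and the animals were described as littermates of the cross. Frozen hippocampi were pooled before nuclei were released. The number of animals behind a library and their age were not given in the labels, and with 1 library in WT and in TG_PS19 the spread between animals of those groups was not measured.

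Iron circulates bound to transferrin (Trf) and enters cells through the transferrin receptor (Tfrc), after which Slc11a2 moves it out of the endosome. Slc39a14 imports iron that is not bound to transferrin, and also zinc and manganese. Ferritin, a shell of heavy (Fth1) and light (Ftl1) chains, stores it. Ferroportin (Slc40a1) exports it, and the ferroxidase ceruloplasmin (Cp) oxidizes iron as it leaves. Heme oxygenase 1 (Hmox1) frees iron from heme. Ireb2 encodes an iron regulatory protein that binds a hairpin, the iron-responsive element, in the mRNAs of several of the others when iron is scarce. Binding before the coding sequence blocks translation, and binding after it protects the transcript from decay. In brain, oligodendrocytes are known as iron-rich cells, and endothelial cells of the blood-brain barrier take up iron from blood.

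The hairpins are shown because they mark members whose mRNA can be regulated by iron, though such a member need not match the pattern searched. Before the coding sequence a hairpin acts through translation, which RNA levels do not measure. After it, a hairpin acts through the stability of the transcript. A search of GENCODE M21 transcripts (GRCm38) used an unpaired C, 5 bases, the loop CAGTGN and 5 bases that pair with the first 5 (G-U pairs allowed), on the transcript strand, with at least 4 of 5 pairs in the lower stem. It found 4 of the 10 members, against 30 of 22527 coding genes searched (0.133%). The pattern was that of the known iron-responsive element, which several members are known to carry. These shares are therefore a description and no test of the list. Each site is printed 5′ to 3′ as DNA with the loop in capitals.
Fth1, 5′ UTR, chr19:9982733-9982759, plus strand: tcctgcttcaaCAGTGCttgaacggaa
Ftl1, 5′ UTR, chr7:45459780-45459806, minus strand: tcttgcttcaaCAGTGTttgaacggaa
Slc40a1, 5′ UTR, chr1:45925466-45925492, minus strand: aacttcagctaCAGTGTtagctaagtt
Tfrc, 3′ UTR, chr16:32631220-32631246, plus strand: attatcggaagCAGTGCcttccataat
Tfrc, 3′ UTR, chr16:32631599-32631625, plus strand: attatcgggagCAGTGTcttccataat
Tfrc, 3′ UTR, chr16:32631664-32631690, plus strand: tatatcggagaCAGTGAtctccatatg
Tfrc, 3′ UTR, chr16:32631711-32631737, plus strand: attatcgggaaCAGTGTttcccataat
The 3 genes with a 5′ UTR hit were among 7 such coding genes (0.0311%), and Tfrc was among 11 with a 3′ UTR hit (0.0488%). Tfrc held 4 sites. No match, as for Slc11a2, says only that these letters are not in the annotated transcripts. It does not show that iron leaves the mRNA unregulated.

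The files held 12762 nuclei in WT, 4643 in PS19 1, 4924 in PS19 2 and 9719 in TG_PS19, of which 4467 to 11458 were kept. Median UMIs per nucleus were 2643, 2996, 3708.5 and 2659 in the same order. Both PS19 libraries thus had fewer nuclei and more UMIs per nucleus than WT and TG_PS19. Yield and depth therefore differ along with group in contrasts with PS19. Library pairs shared 5 to 32 barcodes. Nuclei were clustered without the iron genes and named by markers, and 12 classes had at least 50 nuclei in every library. Summed markers of each tested class were higher in it than in any other class in all 4 libraries, except those of oligodendrocyte precursors, for which this held in 3. In TG_PS19, 4470 kept nuclei held Xist UMIs without Y-linked UMIs and 2205 the reverse, while at most 27 nuclei of any other library held Xist alone, so that the TG_PS19 library holds nuclei of both sexes and the others almost only male nuclei. Sex and the SORLA transgene cannot be told apart in contrasts with TG_PS19, except in its Y-called nuclei, whose values are given where they end a call. These are 2205 of 8963 kept TG_PS19 nuclei, so an ended call may go with lower depth as well as with sex. Levels are given as CPM, the share of a class's summed UMIs that fell on a gene, scaled to 1000000, and intervals cover counting error only.

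Each iron gene had its own cellular distribution, and for 3 of them 1 class stood apart in all 4 libraries. Trf was highest in oligodendrocytes, Fth1 likewise, and Tfrc in endothelial cells.

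**Figure D1:**
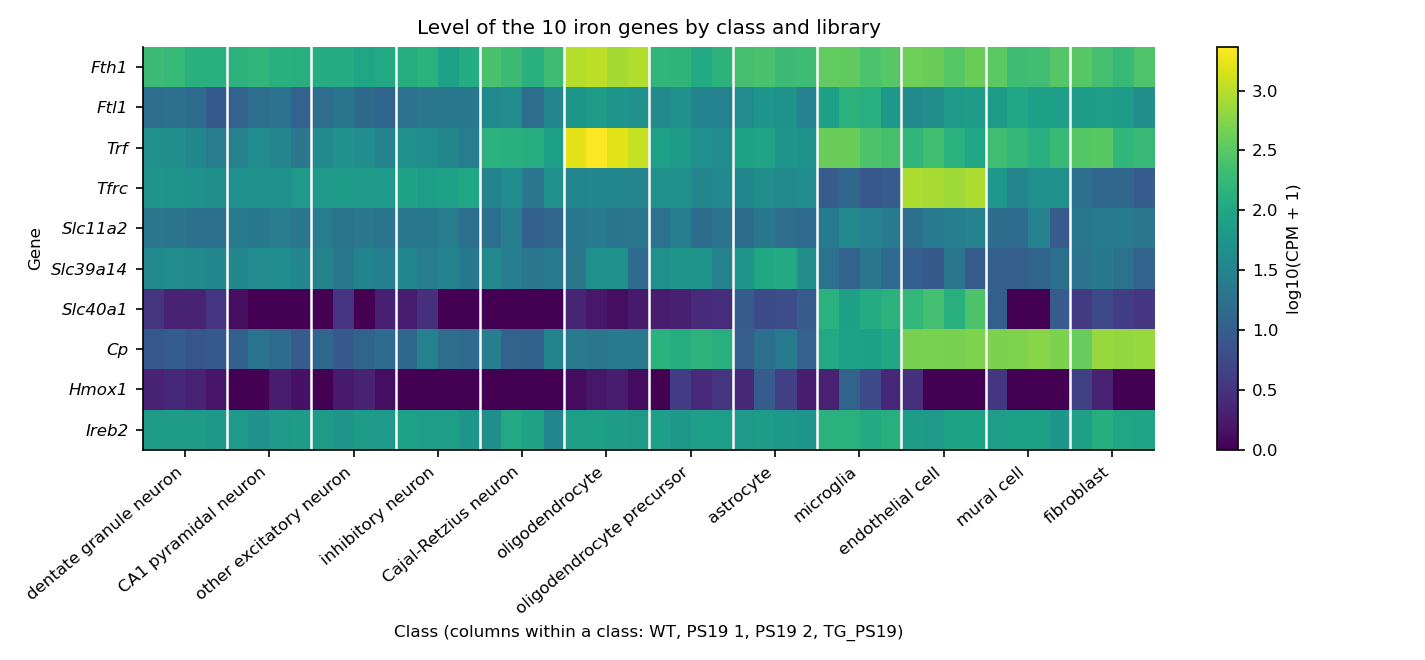
Colour shows log10(CPM + 1) for the 10 genes (rows) in 12 classes, each with 4 columns in the order WT, PS19 1, PS19 2 and TG_PS19. Trf and Fth1 peak in oligodendrocytes, Tfrc in endothelial cells, Slc40a1 in endothelial cells and microglia, and Cp in fibroblasts, mural cells and endothelial cells.

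Fth1 (chr19:9980598-9985098, plus strand) stood at 980 CPM in WT, 1054 in PS19 1, 801 in PS19 2 and 938 in TG_PS19 oligodendrocytes. The next class, endothelial cells, reached at most 419 CPM in any library. From endothelial cells down to other excitatory neurons (111 ± 11.3 CPM, SD, n = 4 libraries) each class overlapped its neighbour. Ftl1 (chr7:45457944-45459884, minus strand) followed another order: microglia were first with 105 ± 40.3 CPM (n = 4), then mural cells with 78.7 ± 13.3 CPM (n = 4), and all neighbours in the order overlapped. Oligodendrocytes, which ranked first for the heavy chain, were the fourth for the light chain at 58.8 ± 8.48 CPM (n = 4).

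Trf (chr9:103204001-103230444, minus strand) reached 1666 CPM in WT, 2308 in PS19 1, 1610 in PS19 2 and 1169 in TG_PS19 oligodendrocytes. The PS19 libraries differed from each other, with PS19 2 next to WT and TG_PS19 lowest. Microglia came next at 324 ± 82.5 CPM (n = 4), then fibroblasts at 239 ± 78.1 CPM (n = 4). Part of any oligodendrocyte transcript in other classes can be free RNA, so Trf was set beside the 8 oligodendrocyte markers. In dentate granule neurons Trf stood at 1.98% to 2.89% of its oligodendrocyte level and the markers at 2.21% to 2.75% of theirs, a ratio of 0.895 to 1.05. In microglia Trf stood at 16.5% to 23.4% and the markers at 4.99% to 6.04%. In fibroblasts Trf stood at 9.98% to 17.9% and the markers at 2.29% to 4.53%. The ratio was near that of the markers in granule neurons and at least 2.74 in microglia and fibroblasts.

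Tfrc (chr16:32608920-32632794, plus strand) read 890 CPM in WT, 846 in PS19 1, 772 in PS19 2 and 899 in TG_PS19 endothelial cells. No other tested class passed 96.4 CPM in any library. Inhibitory neurons (85.0 ± 8.74 CPM, n = 4) lay above other excitatory neurons (64.4 ± 2.33 CPM, n = 4) in every library. Microglia were last, between 7.18 and 12.3 CPM. After each nucleus was thinned to 1000 UMIs, 32.2% to 37.6% of endothelial nuclei held a Tfrc UMI.

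Of the importers, Slc11a2 was the more evenly spread, while class means of Slc39a14 ran from 11.5 to 78.7 CPM. Slc11a2 (chr15:100387898-100425072, minus strand) ranged between 8.10 and 36.9 CPM over the 12 classes and 4 libraries. Slc39a14 (chr14:70303469-70351425, minus strand) was highest in astrocytes, where it read 55.2 CPM in WT, 103 in PS19 1, 112 in PS19 2 and 44.2 in TG_PS19.

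Export was split between cell types. Slc40a1 (chr1:45908068-45926523, minus strand) read 170 CPM in WT, 230 in PS19 1, 130 in PS19 2 and 262 in TG_PS19 endothelial cells. In microglia it read 138, 81.6, 116 and 144 CPM in the same order, which overlaps the endothelial range. Astrocytes followed with at most 8.16 CPM, and Cajal-Retzius neurons had no UMI in any library, where 3 counts would be 8.05 to 16.0 CPM. Cp (chr3:19957054-20009145, plus strand) was high in fibroblasts (614 ± 153 CPM, n = 4), mural cells (524 ± 38.4 CPM, n = 4) and endothelial cells (483 ± 18.8 CPM, n = 4), which overlapped. Oligodendrocyte precursors (138 ± 12.6 CPM, n = 4) and microglia (92.1 ± 13.2 CPM, n = 4) followed, each above the next class in every library. Microglia and endothelial cells were thus the tested classes that held both the exporter and its ferroxidase above 50 CPM in all 4 libraries.

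Hmox1 (chr8:75093621-75100589, plus strand) was close to its floor almost everywhere, with a mean of at most 4.49 CPM in any tested class. Ireb2 (chr9:54863789-54912530, plus strand) differed less between classes: microglia held 113 to 138 CPM, and the 11 other classes averaged 62.4 to 97.2 CPM.

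PS19 was compared with WT to ask what tau transgene expression does to these genes. Members entered the test in 93 gene and class pairs: Fth1, Trf and Ireb2 in 12 classes each, Ftl1, Tfrc and Cp in 11, Slc11a2 in 10, Slc39a14 in 9, Slc40a1 in 4 and Hmox1 in 1. Slc39a14 rose in oligodendrocytes and astrocytes, Cp rose in fibroblasts and astrocytes, Ftl1 rose in microglia, and Fth1 fell in dentate granule neurons and fibroblasts. These were 7 of 93 pairs at an adjusted p under 0.05 by edgeR's quasi-likelihood test with Benjamini-Hochberg adjustment within a class, 5 higher and 2 lower, beside 2.78% of all 142941 pairs tested (1.29% higher, 1.49% lower). At an unadjusted p under 0.05 there were 15 of 93, beside 10.6% of all pairs. The median log2 fold change was 0.01 over member pairs and 0.01 over all pairs. Over member pairs it was -0.05 without PS19 replicate 1 and 0.06 without PS19 replicate 2. By class the background was 6.59% in oligodendrocytes, 5.27% in astrocytes, 9.52% in microglia, 2.76% in fibroblasts and 2.71% in dentate granule neurons. The spread was measured between the PS19 libraries alone, on 1 residual degree of freedom, and in 8 of the 12 classes the estimated prior was infinite, so that genes of similar level share 1 spread. DESeq2 on the same sums called 1 of the 7, Slc39a14 in oligodendrocytes, and 0.242% of all pairs. Sums thinned to 1000 UMIs per nucleus called 1 of the 7, Cp in fibroblasts, and 1.24% of all pairs.

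**Figure D2:**
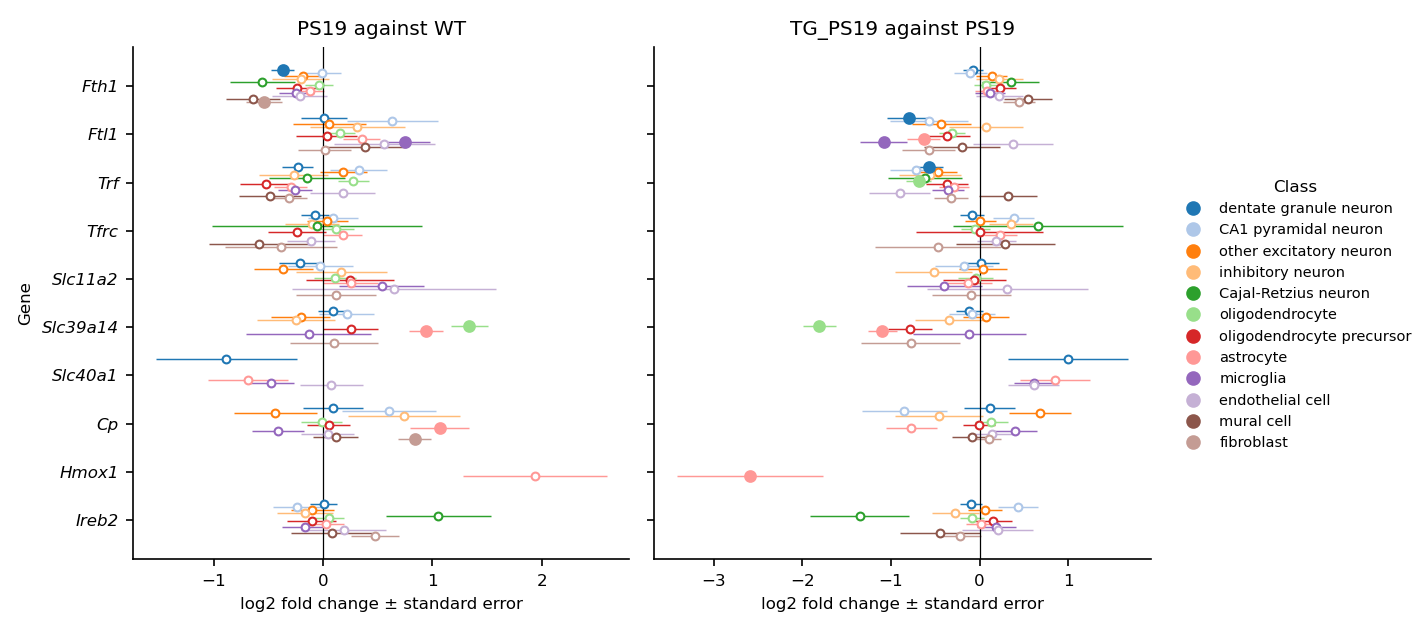
Log2 fold change for each of the 93 member and class pairs, PS19 against WT on the left and TG_PS19 against PS19 on the right. Bars show the standard error (SE), derived as the absolute log2 fold change divided by the square root of edgeR's F statistic. Colour gives the class and filled points have an edgeR adjusted p under 0.05, which are 7 pairs on the left and 8, all lower, on the right.

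Slc39a14 had the lowest adjusted p of the members in this comparison. In oligodendrocytes it read 20.5 CPM in WT (135 UMIs, 95% interval 17.2 to 24.3), 49.6 in PS19 1 (234 UMIs, 43.4 to 56.4), 50.8 in PS19 2 (300 UMIs, 45.2 to 56.9) and 13.8 in TG_PS19 (89 UMIs, 11.1 to 16.98). The PS19 libraries lay next to each other and far above the other 2. The log2 fold change in PS19 against WT was 1.34 (SE 0.17, edgeR adjusted p = 2.73e-10). In astrocytes it was 0.94 (SE 0.15, edgeR adjusted p = 1.37e-07). In the other 7 classes tested Slc39a14 was not called. Dentate granule neurons, with 38.9, 42.9, 39.4 and 35.4 CPM in WT, PS19 1, PS19 2 and TG_PS19, changed by 0.09 (SE 0.14).

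**Figure D3:**
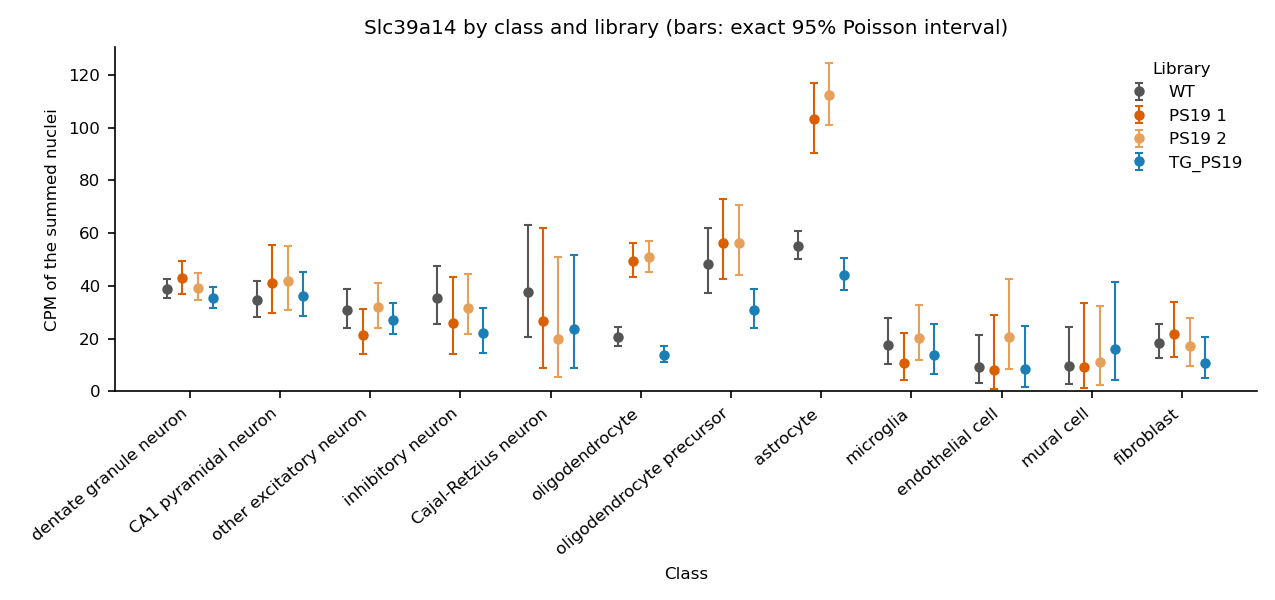
Slc39a14 level in CPM (vertical) in 12 classes for each library, with exact 95% Poisson intervals of the summed UMIs. The PS19 points stand above WT and TG_PS19 in oligodendrocytes (49.6 and 50.8 against 20.5 and 13.8 CPM) and astrocytes (103 and 112 against 55.2 and 44.2 CPM).

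Slc39a14 was higher in both PS19 libraries than in WT in all 3 oligodendrocyte clusters. In oligodendrocyte cluster 0 Slc39a14 read 21.4 CPM in WT, 46.3 in PS19 1 and 48.7 in PS19 2. In cluster 3 it read 17.03, 49.3 and 46.8 CPM, and in cluster 4 it read 23.4, 59.5 and 84.0 CPM. In the astrocyte cluster led by Gfap, the intermediate filament gene that marks reactive astrocytes, it read 66.0 CPM in WT, 158 in PS19 1 and 173 in PS19 2. In the cluster led by Rorb it read 54.3, 68.7 and 72.3 CPM. The Gfap-led cluster held 415 of the 2594 WT astrocytes, 226 of 603 in PS19 1 and 266 of 690 in PS19 2, so that its share moves with the class value. Differences between clusters were not tested.

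**Figure D4:**
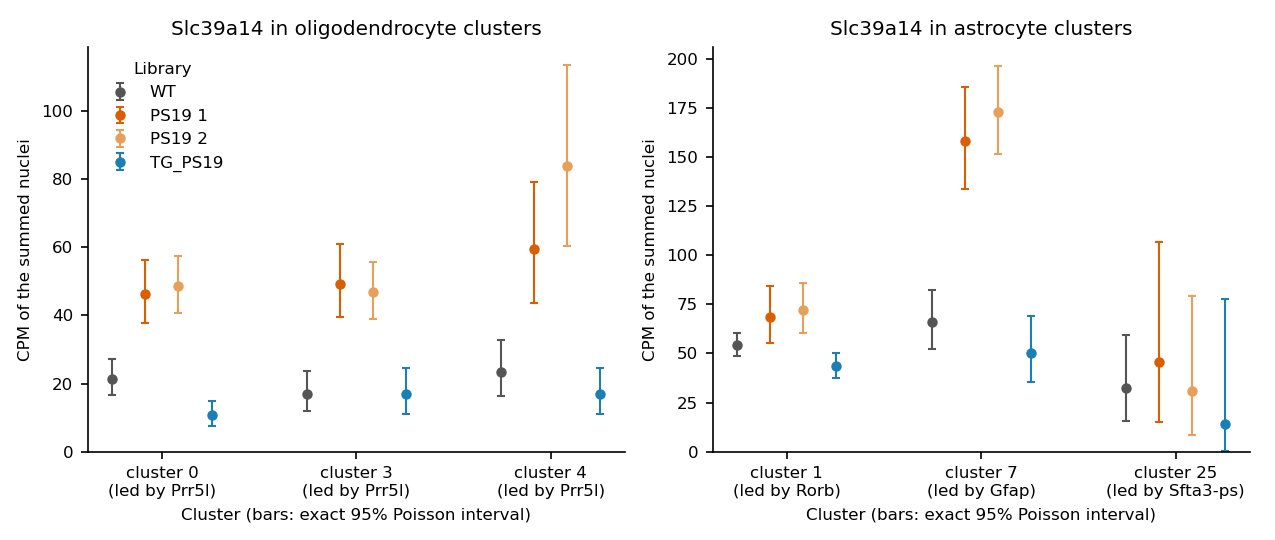
Slc39a14 level in CPM (vertical) in 3 oligodendrocyte clusters (left) and 3 astrocyte clusters (right), with exact 95% Poisson intervals. Both PS19 points exceed WT in every oligodendrocyte cluster, and among astrocytes the cluster led by Gfap shows the widest gap (158 and 173 against 66.0 CPM).

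Nuclei were also split, after thinning to 1000 UMIs, by a UMI of the glial reaction genes C4b or Serpina3n (with Gfap added for astrocytes). Oligodendrocytes with such a UMI held 57.4 CPM of Slc39a14 in PS19 1 and 66.3 in PS19 2, and those without held 50.9 and 45.4. WT oligodendrocytes without one held 21.1 CPM. The level in PS19 nuclei without a reaction UMI was therefore above that of WT. In astrocytes the values with a UMI were 136 and 148 CPM in PS19 1 and PS19 2, and without one 62.7 and 75.3, beside 57.6 in WT without one. WT astrocytes with one held 71.6 CPM, and TG_PS19 astrocytes held 41.2 with one and 42.2 without. The gap by reaction UMI was thus wide in PS19 and narrow in WT and TG_PS19, a difference that was not tested. A nucleus without such a UMI may still express the gene.

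Cp rose in fibroblasts of both tau groups. It read 386 CPM in WT, 696 in PS19 1, 665 in PS19 2 and 709 in TG_PS19, so that WT alone was low. The log2 fold change was 0.84 in PS19 against WT (SE 0.15, edgeR adjusted p = 3.16e-06) and 0.94 in TG_PS19 against WT (SE 0.17, edgeR adjusted p = 9.75e-06), both against the same WT library. All 4 fibroblast clusters had their lowest value in WT: 144 against 172 to 239 CPM in cluster 29, 451 against 720 to 832 CPM in cluster 6, 170 against 245 to 514 CPM in cluster 17, and 692 against 844 to 1168 CPM in cluster 21. The fibroblast class also held astrocyte markers, at 4902 CPM in WT and 5837 to 6254 CPM in the others, and their part in the result was not tested. Mural cells (507, 510, 582 and 498 CPM in WT, PS19 1, PS19 2 and TG_PS19) and endothelial cells (472, 484, 469 and 510 CPM) showed no such gap, with log2 fold changes of 0.12 (SE 0.21) and 0.04 (SE 0.24) in PS19 against WT.

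In astrocytes Cp was low, at 9.45 CPM in WT, 16.1 in PS19 1, 23.5 in PS19 2 and 10.3 in TG_PS19. It rose by 1.07 on the log2 scale in PS19 against WT (SE 0.27, edgeR adjusted p = 0.00300). In the Gfap-led cluster it read 11.8 CPM in WT, 28.8 in PS19 1 and 47.0 in PS19 2, and in the Rorb-led cluster 8.03, 6.10 and 2.80 CPM. In the smallest astrocyte cluster, led by Sfta3-ps, it read 28.98, 27.5 and 61.9 CPM on 9, 3 and 8 UMIs. Both PS19 libraries were above WT in the Gfap-led cluster, and neither was in the Rorb-led one. After thinning to 1000 UMIs the log2 fold change was 0.74 with an edgeR adjusted p = 0.571.

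The ferritin chains moved differently from each other. Ftl1 in microglia read 81.0 CPM in WT, 146 in PS19 1, 131 in PS19 2 and 60.9 in TG_PS19, a rise of 0.75 in PS19 against WT (SE 0.23, edgeR adjusted p = 0.0156). Microglia of the groups lay in different clusters. Cluster 8 held 549 of 581 WT nuclei, 53 of 261 in PS19 1, 56 of 293 in PS19 2 and 395 of 411 in TG_PS19, and cluster 12 held 32, 199, 226 and 15. In cluster 8 Ftl1 read 81.4, 94.4, 104 and 56.5 CPM, and the 10 and 15 UMIs of the PS19 libraries leave intervals that include the WT value. In cluster 12 it read 76.0, 150, 142 and 179 CPM, where WT and TG_PS19 had 5 UMIs each. Ribosomal protein genes, which mark cytoplasmic RNA in nuclei, summed to 3712, 4241, 3518 and 3469 CPM in these microglia, and their part in the result was not tested.

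Fth1 did not follow. Microglia held 356 CPM in WT, 352 in PS19 1, 259 in PS19 2 and 307 in TG_PS19, and the log2 fold change in PS19 against WT was -0.25 (SE 0.16). Within cluster 8 Fth1 read 360 CPM in WT and 217 and 160 CPM in PS19 1 and PS19 2, and within cluster 12 it read 304, 366 and 251 CPM. Fth1 fell in dentate granule neurons by 0.37 on the log2 scale in PS19 against WT (SE 0.11, edgeR adjusted p = 0.0236), with 202 CPM in WT, 176 in PS19 1, 135 in PS19 2 and 137 in TG_PS19. It fell in fibroblasts by 0.54 (SE 0.16, edgeR adjusted p = 0.0392), with 305, 232, 181 and 273 CPM. In both classes PS19 2 was lowest, and PS19 2 had the lower Fth1 of the PS19 pair in 11 of the 12 tested classes, mural cells being the exception. Without PS19 replicate 2 the granule neuron difference was -0.20, and without PS19 replicate 1 it was -0.55, values with no test.

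Hmox1 was tested in astrocytes only. It read 1.42 CPM in WT (11 UMIs), 8.49 in PS19 1 (20 UMIs in 9 nuclei), 3.36 in PS19 2 (11 UMIs in 9 nuclei) and 0.796 in TG_PS19 (4 UMIs). PS19 1 was the high library. The log2 fold change in PS19 against WT was 1.94 (SE 0.66), with an edgeR adjusted p = 0.0585 that missed the threshold. Of the astrocyte UMIs, 18 in PS19 1 and 9 in PS19 2 came from the Gfap-led cluster.

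Slc40a1 was not called in any class. In microglia of cluster 8 it read 144 CPM in WT, 151 in PS19 1, 195 in PS19 2 and 145 in TG_PS19. In cluster 12 it read 60.8, 73.2, 103 and 143 CPM, with 4 UMIs in WT and in TG_PS19. Within PS19, where both clusters had at least 16 UMIs per library, cluster 12 was the lower in both libraries, while in TG_PS19 the clusters read 145 and 143 CPM, the latter on 4 UMIs. Microglia split, after thinning, by a UMI of 7 disease-state genes (such as Clec7a and Apoe) gave no common order. With and without one, Slc40a1 read 151 and 92.9 CPM in WT and 67.9 and 222 in PS19 1. It read 107 and 134 CPM in PS19 2, and 128 and 115 in TG_PS19. Nuclei with one numbered 410 in WT, 221 in PS19 1, 225 in PS19 2 and 265 in TG_PS19. Those without numbered 140, 36, 67 and 130. Most nuclei of every library, WT included, thus held such a UMI, so the split does not isolate a disease state. The PS19 1 and PS19 2 values without one rest on 8 and 9 UMIs. Over the class the log2 fold change was -0.47 in PS19 against WT (SE 0.21, edgeR adjusted p = 0.175) and 0.61 in TG_PS19 against PS19 (SE 0.22, edgeR adjusted p = 0.0617).

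**Figure D5:**
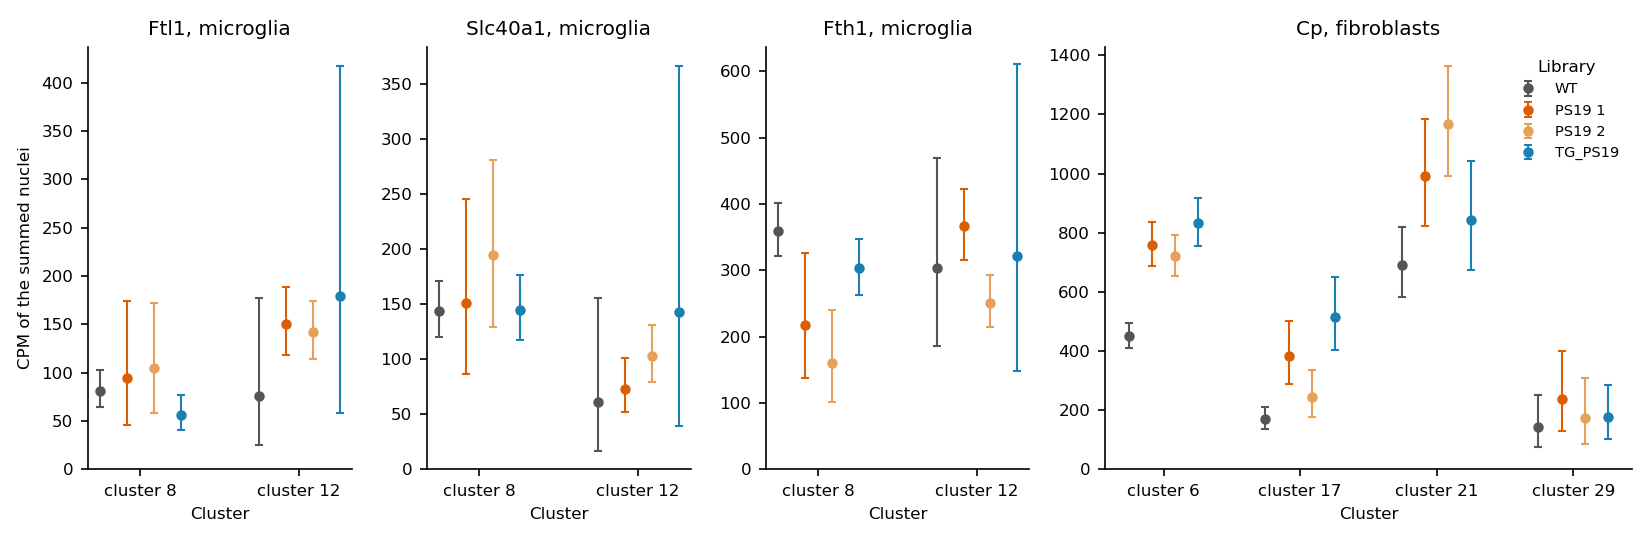
CPM (vertical) of Ftl1, Slc40a1 and Fth1 in microglial clusters 8 and 12 and of Cp in 4 fibroblast clusters, by library, with exact 95% Poisson intervals. Slc40a1 is lower in cluster 12 than in cluster 8 in both PS19 libraries (73.2 and 103 against 151 and 195 CPM), and Cp is lowest in WT in each fibroblast cluster.

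TG_PS19 was compared with PS19 to ask how the SORLA transgene, in mice that carry the tau transgene, changes these levels. Both comparisons use the same PS19 libraries, so a high PS19 value enters them with opposite signs. Slc39a14 was lower in oligodendrocytes and astrocytes, Trf in oligodendrocytes and dentate granule neurons, Ftl1 in granule neurons, astrocytes and microglia, and Hmox1 in astrocytes. These were 8 of 93 pairs, all lower, beside 4.77% of all pairs (3.06% higher, 1.72% lower). By class the background was 8.71% in oligodendrocytes, 10.1% in astrocytes, 9.76% in microglia and 8.72% in dentate granule neurons. At an unadjusted p under 0.05 there were 20 of 93, beside 14.2% of all pairs. The median log2 fold change was -0.08 over member pairs, -0.01 without PS19 replicate 1, and -0.01 over all pairs. The Y-called nuclei were 216 of 989 granule neurons and 462 of 1562 astrocytes in TG_PS19. Sex and lower depth therefore cannot be told apart where a call was lost in them. When TG_PS19 was limited to its Y-called nuclei, 5 of the 8 pairs were called, beside 3.09% of all pairs, and 3 were not. Those were Hmox1 in astrocytes at -2.91 (edgeR adjusted p = 0.171), Ftl1 in granule neurons at -0.60 (edgeR adjusted p = 0.409) and Trf in granule neurons at -0.62 (edgeR adjusted p = 0.0839). DESeq2 called 2 of the 8, both Slc39a14, and 0.55% of all pairs.

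Slc39a14 fell by 1.81 in oligodendrocytes (SE 0.18, edgeR adjusted p = 1.76e-14) and by 1.09 in astrocytes (SE 0.17, edgeR adjusted p = 4.69e-09). In the Y-called TG_PS19 nuclei the log2 fold changes were -1.85 and -1.35. The Gfap-led astrocyte cluster held 232 of 1562 TG_PS19 astrocytes, a smaller share than the 226 of 603 and 266 of 690 in PS19 1 and PS19 2. Within it Slc39a14 read 50.4 CPM in TG_PS19, against 158 and 173 CPM in PS19. Within the Rorb-led cluster it read 43.6 CPM against 68.7 and 72.3 CPM. In oligodendrocyte precursors, with 48.4 CPM in WT, 56.2 in each PS19 library and 30.9 in TG_PS19, it was -0.78 (SE 0.24, edgeR adjusted p = 0.0670). Against WT the TG_PS19 values were -0.47 in oligodendrocytes (SE 0.23, edgeR adjusted p = 0.307) and -0.15 in astrocytes (SE 0.18, edgeR adjusted p = 0.826). With sums thinned to 1000 UMIs per nucleus Slc39a14 in oligodendrocytes kept its size, 1.40 in PS19 against WT and -1.57 in TG_PS19 against PS19, and lost its call (edgeR adjusted p = 0.513 and 0.434).

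Trf fell by 0.69 in oligodendrocytes of TG_PS19 against PS19 (SE 0.14, edgeR adjusted p = 2.38e-04). TG_PS19 was below both PS19 libraries in each of the 3 oligodendrocyte clusters, with 1300 against 2651 and 1892 CPM in cluster 0, 1022 against 1950 and 1368 CPM in cluster 3, and 1050 against 2122 and 1296 CPM in cluster 4. Against WT the oligodendrocyte difference was -0.41 (SE 0.16, edgeR adjusted p = 0.174). Without PS19 replicate 1 the difference from PS19 was -0.42, a value with no test. Scaling by library totals left -0.74 with an edgeR adjusted p = 0.173. In dentate granule neurons, where Trf stood in the same ratio to its oligodendrocyte level as the markers, it fell by 0.57 against PS19 (SE 0.16, edgeR adjusted p = 0.00651) with 48.1 CPM in WT, 45.6 in PS19 1, 36.2 in PS19 2 and 25.5 in TG_PS19. The oligodendrocyte markers read 560, 455, 463 and 490 CPM in the same dentate granule neuron sums. Granule neuron Trf stood at 2.89%, 1.98%, 2.25% and 2.18% of the oligodendrocyte Trf level of its own library, in the same order. TG_PS19 thus lay between the PS19 libraries on that scale. The part of free oligodendrocyte RNA in the granule neuron result was not tested.

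Ftl1 fell in TG_PS19 against PS19 by 1.08 in microglia (SE 0.26, edgeR adjusted p = 0.00100; 1.97 with Y-called nuclei), by 0.63 in astrocytes (SE 0.19, edgeR adjusted p = 0.0124) and by 0.80 in dentate granule neurons (SE 0.25, edgeR adjusted p = 0.0192). Astrocytes held 41.4 CPM in WT, 58.1 in PS19 1, 50.4 in PS19 2 and 30.4 in TG_PS19. In the Gfap-led astrocyte cluster Ftl1 read 29.2 CPM in TG_PS19 against 59.8 and 55.9 CPM in PS19, and in the Rorb-led one 29.8 against 57.2 and 45.4 CPM. Granule neurons held 14.97, 16.2, 13.9 and 8.02 CPM. TG_PS19 was the lowest library in all 3 classes. Ribosomal protein genes summed to 2070, 2193, 1838 and 1570 CPM in the dentate granule neuron class in the same order, with TG_PS19 again lowest, and their part in the result was not tested. Ftl1 shares sequence with the copy Ftl1-ps1 and other pseudogenes, and how the counting treated reads that fit several copies was not given in the sources used here, so Ftl1 values are uncertain to that extent. Fth1 was not called in any class in this contrast, and its log2 fold changes ran from -0.10 to 0.54.

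Hmox1 in astrocytes fell by 2.59 in TG_PS19 against PS19 (SE 0.82, edgeR adjusted p = 0.0206), a value that rests on 4 UMIs in TG_PS19 and on 20 UMIs from 9 nuclei in PS19 1. In the Gfap-led cluster it had 1 UMI in TG_PS19, beside 18 and 9 in PS19, and in the Rorb-led cluster 3 UMIs beside 1 and 2.

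TG_PS19 against WT gave 5 called pairs of 93, 1 higher and 4 lower, beside 1.93% of all pairs (1.35% higher, 0.584% lower). The median log2 fold change over member pairs was -0.05. Besides Cp in fibroblasts these were Fth1, Ftl1 and Trf in dentate granule neurons and Trf in astrocytes. Fth1 fell by 0.44 (SE 0.12, edgeR adjusted p = 0.00921), Ftl1 by 0.78 (SE 0.26, edgeR adjusted p = 0.0421) and Trf by 0.80 (SE 0.16, edgeR adjusted p = 1.03e-04) in granule neurons. Trf fell by 0.59 in astrocytes (SE 0.18, edgeR adjusted p = 0.0336), where the oligodendrocyte markers summed to 595 CPM in WT astrocyte nuclei and 505 in TG_PS19. Astrocyte Trf stood at 5.22% of the oligodendrocyte Trf level in WT and 4.41% in TG_PS19. The part of free oligodendrocyte RNA was not tested. DESeq2 called 0 of the 93 pairs in this contrast, where 14 had an unadjusted p under 0.05 by edgeR, beside 10.6% of all pairs. With Y-called TG_PS19 nuclei Cp in fibroblasts and Trf in granule neurons were called, beside 0.947% of all pairs. The other 3 were not: Fth1 in granule neurons at -0.43 (edgeR adjusted p = 0.0728), Ftl1 there at -0.59 (edgeR adjusted p = 0.506) and Trf in astrocytes at -0.60 (edgeR adjusted p = 0.134). Trf in astrocytes also lost its call with relative log expression scaling, without the low-count filter and with doublets kept (edgeR adjusted p = 0.0532 to 0.132). Ftl1 in granule neurons lost it without the filter, with the robust prior and with doublets kept (edgeR adjusted p = 0.0525 to 0.0685). Thinning ended the calls of Cp in fibroblasts and of the 3 genes in granule neurons (edgeR adjusted p = 0.0970 to 0.861).

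Tfrc, Slc11a2 and Ireb2, the receptor, the endosomal exit and the regulator, were not called in any class or contrast. For Tfrc the log2 fold changes in PS19 against WT ran from -0.58 to 0.18 over 11 classes, and in endothelial cells, where it is high, the value was -0.11 (SE 0.22) and 0.19 (SE 0.22) in TG_PS19 against PS19. Slc11a2 ran from -0.36 to 0.65 over 10 classes in PS19 against WT. Ireb2 ran from -0.24 to 1.06 over 12 classes, and its extreme, in Cajal-Retzius neurons, had an SE of 0.48 (edgeR adjusted p = 1.00). With simulated data of the size of these libraries, a 2-fold change was called for 66% of altered genes in oligodendrocytes, 73% in astrocytes and 52% in microglia in PS19 against WT. The altered genes all had an expected count above 10 in the smallest library, so these shares do not extend to genes with lower counts. Absence of a call in a smaller class is therefore no measure of equal levels.

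A further list of 24 iron pathway genes was fitted in the same tables, and 22 of them were tested in 184 gene and class pairs. In PS19 against WT 4 pairs were called, 2 higher and 2 lower, which is 2.17% of the list's pairs beside 2.78% of all. Flvcr1, a heme exporter, rose in astrocytes by 0.68 (SE 0.17, edgeR adjusted p = 0.00159), with 42.6 CPM in WT, 75.6 in PS19 1, 64.7 in PS19 2 and 35.6 in TG_PS19. Pcbp2, an iron chaperone and RNA-binding protein, rose in oligodendrocytes by 0.44 (SE 0.13, edgeR adjusted p = 0.0190). The Pcbp2 call was lost in 4 of 11 alternative analyses (edgeR or DESeq2 adjusted p up to 0.899). Slc25a37, the mitochondrial iron importer, fell in microglia by 0.99 (SE 0.22, edgeR adjusted p = 2.30e-04), with 147, 52.3, 92.2 and 166 CPM in the order WT, PS19 1, PS19 2 and TG_PS19. Without PS19 replicate 2 it was -1.50. Bmp6, a ligand that induces hepcidin in liver, fell in oligodendrocytes by 2.06 (SE 0.26, edgeR adjusted p = 3.67e-10), with 21.1, 4.24, 5.42 and 5.58 CPM. Bmp6 stood at 1632 to 2068 CPM in fibroblasts, and fibroblast markers in the oligodendrocyte sums read 54.3, 21.8, 20.8 and 25.6 CPM, also highest in WT. Their part in the Bmp6 result was not tested.

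In TG_PS19 against PS19 the same list gave 4 called pairs, 1 higher and 3 lower, again 2.17% beside 4.77% of all. Slc25a37 in microglia was the higher one, at 1.26 (SE 0.23, edgeR adjusted p = 2.30e-06). Flvcr1 fell in astrocytes by 0.77 (SE 0.18, edgeR adjusted p = 4.13e-04). Cybrd1, a ferric reductase, fell in astrocytes by 1.22 (SE 0.34, edgeR adjusted p = 0.00582), with 9.58 CPM in WT, 16.1 in PS19 1, 14.96 in PS19 2 and 5.77 in TG_PS19. Blvra, a biliverdin reductase, fell in fibroblasts by 2.53 (SE 0.77, edgeR adjusted p = 0.0467) on 21, 19 and 3 UMIs in PS19 1, PS19 2 and TG_PS19. With Y-called nuclei Cybrd1 (edgeR adjusted p = 0.0919) and Blvra (edgeR adjusted p = 0.235) were not called.

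Among 10 targets of the oxidative stress factor Nrf2, which also acts on Hmox1 and the ferritin genes, 9 were tested in 78 pairs. PS19 against WT gave 2 higher and 1 lower call, which is 3.85% of the list's pairs beside 2.78% of all. TG_PS19 against PS19 gave 3 lower calls, again 3.85%, beside 4.77% of all (1.72% lower). G6pdx, which makes NADPH, rose by 0.74 in oligodendrocytes (SE 0.20, edgeR adjusted p = 0.00814) and fell by 0.61 in TG_PS19 against PS19 (SE 0.20, edgeR adjusted p = 0.0364), with 15.03, 24.4, 24.4 and 15.4 CPM in the order WT, PS19 1, PS19 2 and TG_PS19. The G6pdx call was lost in 3 of 11 alternative analyses for PS19 against WT and in 5 of 11 for TG_PS19 against PS19. Slc7a11, the cystine importer, rose in CA1 neurons by 2.35 (SE 0.51, edgeR adjusted p = 0.00250) on 12 UMIs in WT and 28 and 19 in PS19, a difference that was -0.28 with doublets kept (edgeR adjusted p = 0.969). It fell there by 1.94 in TG_PS19 against PS19 (SE 0.53, edgeR adjusted p = 0.0152). In oligodendrocytes Slc7a11 fell by 1.04 in PS19 against WT (SE 0.22, edgeR adjusted p = 3.04e-04). That call was lost with DESeq2, library totals and thinning (edgeR or DESeq2 adjusted p = 0.0836 to 0.880). Slc7a11 stood at 3686 to 4450 CPM in fibroblasts, and fibroblast markers in the oligodendrocyte sums read 54.3 CPM in WT and 21.8 and 20.8 CPM in PS19 1 and PS19 2. Their part in the Slc7a11 result was not tested. With Y-called TG_PS19 nuclei G6pdx in oligodendrocytes (-0.32, edgeR adjusted p = 0.585) and Slc7a11 in CA1 neurons (-1.98, edgeR adjusted p = 0.183) were not called against PS19. Prdx1, a peroxidase, fell in microglia by 1.00 in TG_PS19 against PS19 (SE 0.35, edgeR adjusted p = 0.0479). The Prdx1 call was lost in 4 of 11 alternative analyses (edgeR or DESeq2 adjusted p up to 0.9995). Of the 6 ferritin copies and relatives listed, 1 was tested, in 4 classes, and it had 0 edgeR calls. It had 1 unadjusted p under 0.05 in PS19 against WT, in astrocytes at -0.79, beside 10.6% of all pairs. In TG_PS19 against PS19 it had 1, in oligodendrocytes at -0.56, beside 14.2% of all pairs.

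Patterns over the 48 class and library sums were compared by Pearson r of log2(CPM + 10) among 14943 genes, as a description in which sums of a class share its nuclei and sums of a library share its depth. Among the closest to Fth1 were Mal (r = 0.949) and Cldn11 (0.923), and closest to Trf were Itch (0.957), Cldn11 (0.957) and Mag (0.950). Mal, Cldn11 and Mag are myelin genes of oligodendrocytes, and Itch encodes a ubiquitin ligase. Slc40a1 was closest to Gm37082 (0.970), Tal1 (0.970) and Gm37474 (0.964), Tfrc to Slc35f2 (0.901), Nxpe2 (0.898) and Gm28410 (0.883), and Cp to Gm10399 (0.934), Dcbld2 (0.933) and Vsig10 (0.922). Ftl1 was closest to Gm37494 (0.894), Nipbl (0.892) and Rnf135 (0.891). Slc39a14 was closest to Gm20646 (0.831), Fam228a (0.818) and Dtna (0.817), Ireb2 to Olfml3 (0.791), Gmip (0.782) and Hexa (0.771), and Slc11a2, with the lowest values of r, to Zdhhc24 (0.706), Rnpep (0.666) and Tlk1 (0.636).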

How the data were processed

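Nuclei were profiled with the 10x Genomics 3′ v3.1 kit, per the labels' protocols. The deposited matrices hold whole UMI counts per gene and nucleus, made with Cell Ranger 7.1.0 and genome build GRCm38, per the submitters' processing notes. How reads that fit several genes were handled is not given in the sources used here. The 10 genes and the further gene lists were chosen with earlier results of these data known.

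Nuclei with under 500 UMIs, under 300 genes or over 5% mitochondrial UMIs were removed, as were 172 to 1303 nuclei per library that scored highest against simulated doublets. The 2000 most variable genes, without the iron genes and the transgenes, gave 30 principal components and a 15-neighbour graph, which was clustered by the Leiden method (leidenalg 0.10.2, resolution 1.0) into 36 clusters. Clusters were named from marker lists by a rule set after the clusters were seen. This gave 18 named classes and 4 unnamed clusters.

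Counts were summed per class and library and tested with edgeR 4.0.16 (R 4.3.3; TMM, low-count filter, quasi-likelihood F test, two-sided, 4 libraries in 3 groups, Benjamini-Hochberg within a class, 0.05). The test was checked on simulated data for PS19 against WT in oligodendrocytes, astrocytes and microglia. The simulation gave all 4 libraries the fitted spread, so it cannot show whether WT and TG_PS19 vary like the PS19 pair. Each SE is the absolute log2 fold change divided by the square root of the F statistic. P-values and SEs rest on the spread of the PS19 pair, which may be technical. Between those libraries the chi-square per degree of freedom was 1.46 to 2.93, more than counting noise, which does not show whether they are separate biological samples; the labels name them as replicates. Intervals are exact at 95%. Named were all 10 members, any listed gene called in at least 1 class in PS19 against WT or TG_PS19 against PS19, and the 3 genes most like each member that reached 20 CPM. A gene that this rule names is not reported here. Alternatives were DESeq2 1.42.0, other scalings, no filter, a robust prior, doublets kept, thinning to 1000 UMIs, resolution 2.0, Y-called TG_PS19 nuclei and leaving out each PS19 library.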

Additional observations from a re-analysis of the deposited data

Results flagged for a closer look

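Slc7a11, the cystine importer, was called in opposite directions in PS19 against WT, with a log2 fold change of -1.04 in oligodendrocytes and 2.35 in CA1 neurons (edgeR adjusted p = 3.04e-04 and 0.00250). The difference between these classes was not tested. With doublets kept the CA1 value was -0.28 (edgeR adjusted p = 0.969), so the opposite direction depends on their removal. Fibroblast markers in the oligodendrocyte sums read 54.3 CPM in WT and 21.8 and 20.8 CPM in PS19, and Slc7a11 stood at 3686 to 4450 CPM in fibroblasts; their part in the result was not tested.

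Hmox1 stood at 114 CPM in choroid plexus epithelium of PS19 1, a class too small to be tested, on 19 UMIs from 2 nuclei. WT and TG_PS19 had no Hmox1 UMI there, and PS19 2 had 2.

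Fth1 stood at 1721 CPM in TG_PS19 in a cluster that was not named, above every named class of any library. The cluster held 123 nuclei in WT, 9 in each PS19 library and 652 in TG_PS19, was led by Rn7sk, and had a median UMI count of 0.403 of the library median. Fth1 there read 572 CPM in WT, 721 in PS19 1 and 196 in PS19 2. Fth1 was itself among the leading genes of the cluster, beside Ttr and Cst3. At resolution 2.0 the unnamed cluster led by Rn7sk held 15 TG_PS19 nuclei. An unnamed cluster led by Dynlt1a, with Ttr, Cst3 and Fth1 among its leading genes, held 637. Its median UMI count was 0.394 of the library median. The part of free RNA in these shallow nuclei was not tested.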

How the results depend on the processing

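Calls are given for PS19 over WT, TG_PS19 over PS19 and TG_PS19 over WT, in that order. DESeq2 called 1, 2 and 0 member pairs, beside 7, 8 and 5 by edgeR, which had 15, 20 and 14 at an unadjusted p under 0.05. DESeq2 called 346, 786 and 143 of all pairs, beside 3976, 6823 and 2764. Thinning to 1000 UMIs tested 69 member pairs and called 1 in each contrast, and 990, 1417 and 526 of all pairs. With Y-called TG_PS19 nuclei the calls were 5 in TG_PS19 against PS19 and 2 in TG_PS19 against WT, beside 3.09% and 0.947% of all pairs. In TG_PS19 against WT, 3 were called without the low-count filter and 3 with doublets kept, beside 0.774% and 2.07% of all pairs. The median log2 fold change of the members in TG_PS19 against PS19 ran from -0.1027 to -0.0133 as each PS19 library was left out. In TG_PS19 against WT it was -0.16 with library totals and -0.15 with Y-called nuclei. The class with the highest CPM also had the highest share of nuclei with a UMI for 14 of 40 member and library pairs, and for 31 after thinning. Slc7a11 in CA1 neurons turned to -0.28 with doublets kept (edgeR adjusted p = 0.969), an alternative added after the calls were seen. Fewer genes and UMIs enter the thinned fit; for the other changes the cause was not tested. Other scalings, the robust prior and resolution 2.0 left the counts of calls within 1.5 times. No paired analysis was possible because WT and TG_PS19 had 1 library each. Hmox1 and Slc40a1 outside endothelial cells and microglia are limited by depth.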
